A study of Mus musculus with 2 samples.

Results

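Imprinted growth genes are genes expressed mainly from the copy inherited from a single parent, and 10 of them were described here in embryonic mouse cartilage: H19, Meg3, Dlk1, Peg3, Plagl1, Mest, Ndn, Grb10, Sgce and Zdbf2. Members were taken as every probe set whose only gene symbol in the platform annotation was that of a listed gene. This gave 36 probe sets of 9 genes, of 45101 probe sets and 18193 named genes in all. H19 was left without a value because the sole probe set carrying its name is also assigned to Mir675, the microRNA gene that it hosts.

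Expression was measured on 2 Affymetrix mouse arrays hybridised with biotin-labelled cRNA made from growth cartilage of C57BL/6J embryos at E17.5, wild type in both groups. The round array held RNA from cartilage plate portions enriched in round chondrocytes, and the columnar/hypertrophic array held RNA from portions in which the columnar and hypertrophic stages were enriched. On each side, 3 portions were mixed before labelling, and the portions were enriched for a zone rather than sorted into pure cells. Each group was therefore 1 array, so the values carry no replicate error, no test was possible, and differences are described by their size alone.

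Imprinted genes lie in clusters, or domains, in which methylation laid down in the germ line leads to silencing of the maternal or the paternal copy. Many act on fetal growth, with paternally expressed genes tending to promote it and maternally expressed genes tending to restrain it. In mice, a group of these genes is known for high expression in proliferating fetal tissues and for a decline in step with the slowing of growth after birth. In cartilage, chondrocytes pass from a round form through columns of flattened proliferating cells to enlarged hypertrophic cells, and the arrays set the first of these stages against the later ones. Of the genes measured here, Meg3 and, outside neurons, Grb10 are known as maternally expressed, and Dlk1, Peg3, Plagl1, Mest, Ndn, Sgce and Zdbf2 as paternally expressed. The arrays do not separate the parental copies, so every signal below is the sum of both.

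The values are MAS5 signals, which are linear intensities scaled so that each array has the same trimmed mean (500.0). A signal of 100.5, the 95th percentile of 87 probe sets for odorant and other chemosensory receptors, served as a floor, and lower signals were raised to it. Differences are log2 values of the columnar/hypertrophic signal minus the round signal, so that -1 is a 2-fold lower signal. Higher and lower always refer to the columnar/hypertrophic array relative to the round array, and paired signals are given in the order round, then columnar/hypertrophic. A gene was represented by its brightest probe set, and a gene under the floor on only 1 array gave a bound. Signals of different probe sets depend on the probes and were not compared between genes. Across 4825 genes in which more than 1 probe set exceeded the floor on both arrays, the log2 difference varied within a gene with an SD of 0.37, which is a technical spread between probe sets and not a spread between replicates.

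The zones were described by marker genes. These lists were chosen with earlier results of these data known, so their values are not an independent check. Of 8 measured markers of prehypertrophic and hypertrophic cells, 7 were at least 2-fold higher, among them the pannexin channel gene Panx3 (signals of 49.4 and 16143). Of 10 round and resting chondrocyte markers, 9 were at least 2-fold lower, among them the WNT antagonist gene Sfrp2 (3637 and 92.4), and 10 of 10 genes made by chondrocytes of all zones were within 2-fold. Mmp13, a collagenase gene of the terminal hypertrophic stage, did not reach the floor on either array. Markers of fibrous tissue were lower as well. Of 10 measured markers of perichondrium, fibroblasts and tendon, 6 were at least 2-fold lower, and their summed signal over 12 genes went from 108592 to 53077. Postn, encoding periostin, was the lowest of these (1919 and 157.9), the highest was Lum, encoding lumican (22381 and 25256), and Dpt and the tendon factor gene Scx were under the floor on both arrays. Markers of other tissues were mixed. All 6 endothelial markers stayed below the floor on both arrays, as did 8 of 12 skeletal muscle markers, namely Myod1, Myog, Myf5, Myh3, Myh8, Actc1, Mylpf and Ttn. Of the muscle markers that exceeded it, Tnnt3 was at least 4.26-fold higher (63.4 and 429) and Des at least 2.56-fold lower (257.6 and 29.1). Fat markers with a probe set of their own stayed below the floor on both arrays in 4 of 5 cases, and the lipase gene Lpl had signals of 1856 and 2076. Blood and marrow markers did so in 3 of 5 cases. The macrophage gene Lyz2 had 130.1 and 293, 2.25-fold higher, while Csf1r had 190.2 and 129.4, a difference of -0.56. Of osteoblast markers, the transcription factor gene Sp7, also on the hypertrophic list, was 11.4-fold higher (170.3 and 1940). The collagen gene Col1a1, also on the fibrous list, was 2.40-fold lower (1672 and 696). Ifitm5 differed by 0.58, and Dmp1 and Phex were under the floor on both arrays.

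The members fell into 3 genes with lower signals in the columnar/hypertrophic sample and 6 with much the same signal in both. At the 2-fold limit, Dlk1 and Mest, that is 2 of the 9 members, were lower and 0 were higher. The same limit was passed downward by 745 (6.37%) and upward by 504 (4.31%) of all 11703 genes that exceeded the floor on 1 array or both. With a limit of 1.5-fold, 3 members were lower and 0 higher, against 15.8% and 11.7% of all genes, and with 3-fold 0 were lower or higher, against 2.09% and 1.58%. Meg3 lay just inside the limit by its brightest probe set and beyond it by most of its others. The other members, Peg3, Plagl1, Ndn, Grb10, Sgce and Zdbf2, differed by between -0.33 and 0.23. The median over the 9 members was -0.17, against -0.05 over all genes. In RNA from mixed portions, fewer cells expressing a gene and less RNA of it per cell cannot be told apart.

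**Figure D1:**
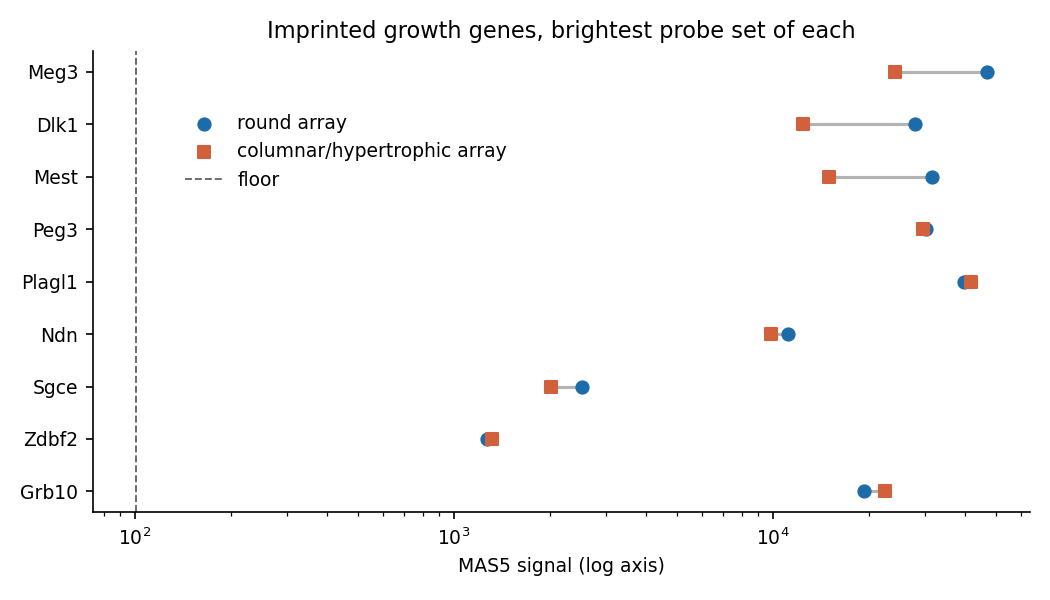
MAS5 signal (horizontal, log axis) of the brightest probe set of 9 imprinted growth genes with circles for the round and squares for the columnar/hypertrophic array, a single array per group, and a dashed line at the floor. The squares of Meg3, Dlk1 and Mest lie to the left of the circles, while the symbols of Peg3, Plagl1 and Zdbf2 nearly coincide.

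Dlk1 encodes a transmembrane and secreted protein with EGF-like repeats that is known to hold back the differentiation of precursor cells, and Meg3 is a long noncoding RNA made from the other parental copy of the same domain. By the brighter of its 2 probe sets, Dlk1 had a signal of 27835 in the round sample and 12428 in the columnar/hypertrophic sample, 2.24-fold lower. That probe set carries the suffix _s_at, which marks probes shared by several transcripts. Its other probe set had signals of 688 and 107, 6.41-fold lower, but the second value is close to the floor. Both probe sets placed Dlk1 lower on the columnar/hypertrophic array, and they disagreed on the size.

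Meg3 was covered by 11 probe sets, and all 11 gave a lower signal in the columnar/hypertrophic sample. Their signals on the round array ran from 1092 to 46945, and those on the other array from 327 to 24094. The differences ran from -2.49 to -0.89 with a median of -1.51, which is 2.85-fold lower. Past the 2-fold limit were 9 of the 11, where 6.00% of all 21589 probe sets exceeding the floor were that much lower and 4.27% that much higher. Over all 36 member probe sets, 12 were that much lower and 0 higher, and 5 stayed below the floor on both arrays. The probe sets of Meg3 share the RNA of the same arrays and are not replicates, so this count describes agreement between probes. The smallest differences came from the brightest pair. The brightest, with signals of 46945 and 24094, gave -0.96, and its round value was the highest of any probe set on that array. It carries the suffix _x_at, and without _x_at and _s_at probe sets Meg3 gave -0.89. The next, with 38144 and 20540, gave -0.89. The sizes did not follow brightness throughout. A probe set nearly as bright, with 37309 and 14026, gave -1.41, and a dim one, with 2307 and 1123, gave -1.04. The largest difference came from a probe set with signals of 9232 and 1644. Whether the brightest signals are compressed was not tested.

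**Figure D2:**
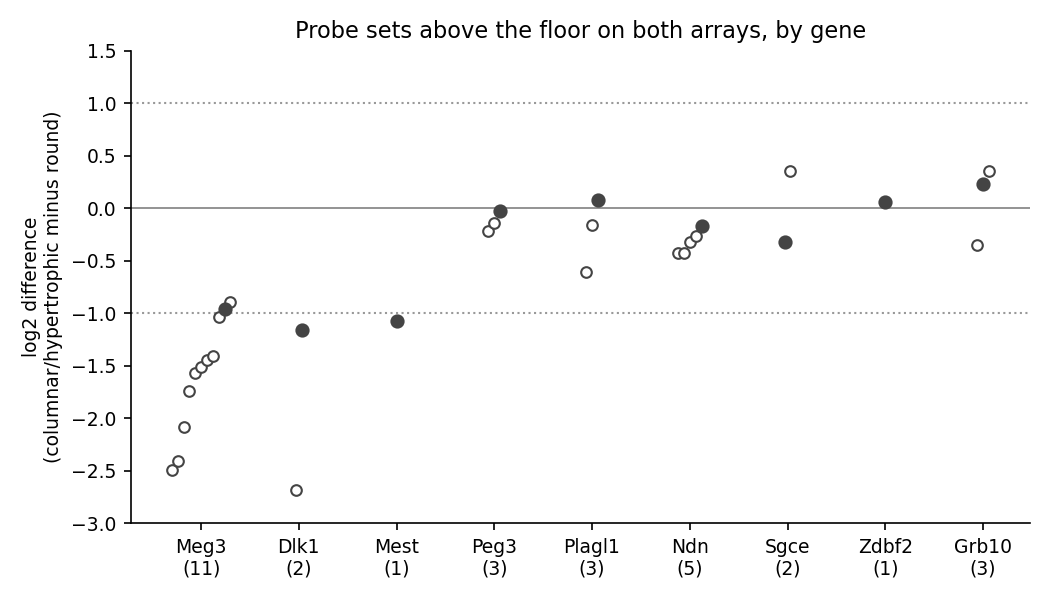
Log2 difference (vertical, columnar/hypertrophic minus round) of every member probe set that exceeded the floor on both arrays, with their number in brackets, the brightest of each gene filled, and dotted lines at 2-fold. The 11 probe sets of Meg3 run from -2.49 to -0.89 and the 2 of Dlk1 from -2.68 to -1.16, while the probe sets of the genes from Peg3 to Grb10 lie between -0.61 and 0.36.

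The neighbours of Dlk1 and Meg3 on mouse chromosome 12 were lower too, and by their brightest probe sets the differences were larger. Rian, a maternally expressed noncoding RNA gene that hosts small nucleolar RNAs, had signals of 13331 and 3329, 4.0-fold lower. Its 4 probe sets differed by between -2.16 and -1.79. Mirg, a noncoding RNA gene of the same domain that hosts microRNAs, had signals of 6913 and 1810, 3.82-fold lower, and its other probe set gave -1.32. Taken over Dlk1, Meg3, Rian and Mirg, 19 of 19 probe sets were lower, 17 of them by at least 2-fold, with a median of -1.74. Of all 21589 probe sets exceeding the floor, 6.00% were lower by at least 2-fold, and the share lower by any amount was not counted. Meg3 alone gave 11 of the 19, and all share the RNA of the same arrays, so they are not replicates. RefSeq (GRCm38.p6) places 57 microRNA hairpins between the start of Meg3 and the end of Mirg, 54 of them on the strand of Meg3. Mature microRNAs were not measured on these arrays. Rtl1, Dio3 and Begain, other genes of the domain, had no probe set naming them alone.

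**Figure D3:**
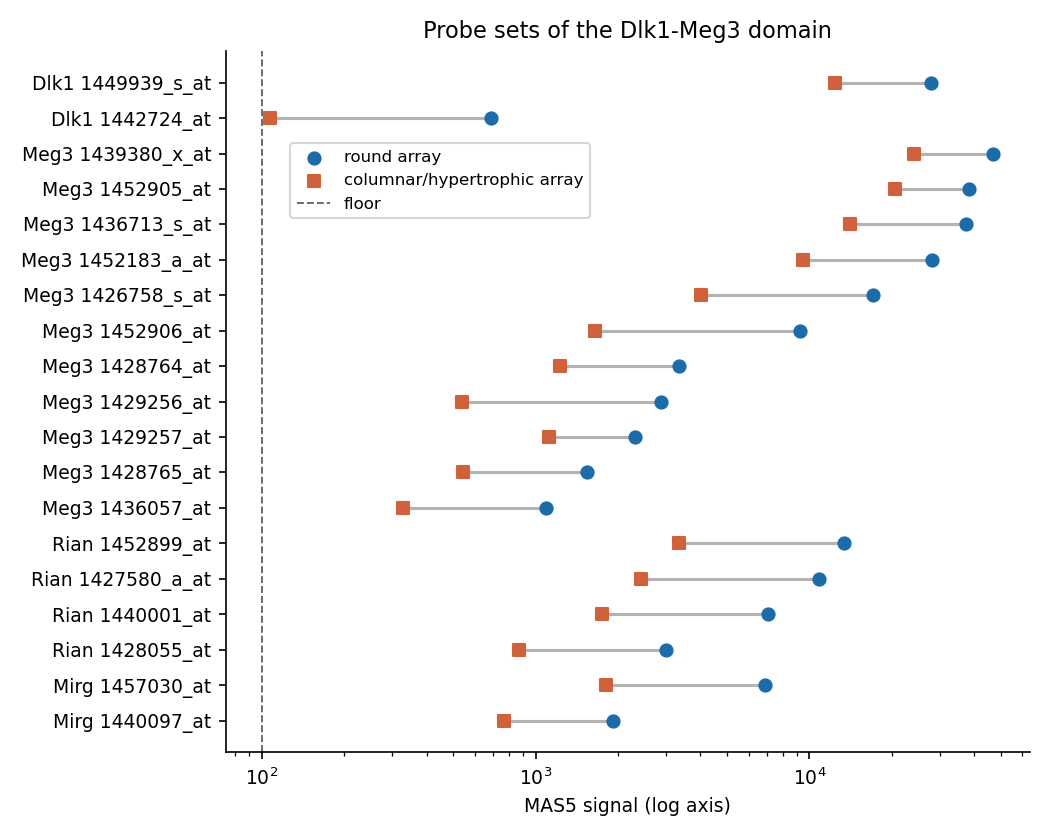
MAS5 signal (horizontal, log axis) of the 19 probe sets of Dlk1, Meg3, Rian and Mirg, in the order of the genes along chromosome 12, with circles for the round and squares for the columnar/hypertrophic array, a single array per group, and a dashed line at the floor. Every square lies to the left of its circle, and the second probe set of Dlk1 comes closest to the floor, at 107.

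Mest encodes a protein of the alpha/beta hydrolase family that is abundant in fetal mesoderm. Its 1 probe set had signals of 31510 and 14950, 2.11-fold lower, and no second probe set could check this value. Mest, like Dlk1 and Meg3, was very bright. Among 280 genes with a geometric mean signal of at least 10000, a limit set after the values were seen, 6 (2.14%) were lower by 2-fold or more and 7 (2.50%) higher. Dlk1 and Mest were 2 of these 6. The others were Dcn and Col3a1, which are on the list of fibrous markers, with Bgn and Cthrc1. The median difference over these bright genes was 0.23. Fibrous markers were lower on the same array, as given above, and their part in the lower signals of Dlk1, Meg3 and Mest was not tested.

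The scaling between the arrays decided whether Dlk1 and Mest passed 2-fold. When both arrays were given the same median signal, the median difference of all genes moved up by 0.28, and the differences became -0.88 for Dlk1, -0.80 for Mest and -0.68 for Meg3. Relative to the median of all genes they were -1.11, -1.02 and -0.90, against -1.11, -1.02 and -0.91 as deposited. These values had to be nearly alike, because equal medians change every signal of an array by the same factor. Their likeness is therefore no check on the scaling. With quantile normalization or lowess centring, all 3 passed 2-fold.

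The promoters of Dlk1, Meg3 and Mest, the members with lower signals, are shown because methylation of CpG dinucleotides is the mark that keeps parental copies apart, and the Meg3 and Mest promoters are known to carry it on a single copy. Methylation was not measured here. Each window is the 300 bases, mostly upstream, around a transcription start in RefSeq, and where a gene has several windows the one with the most CpG was taken. They lie on GRCm38.p6 at chr12:109452573-109452872 for Dlk1, chr12:109540746-109541045 for Meg3 and chr6:30737800-30738099 for Mest, all on the plus strand. The sequences read 5′ to 3′, with CpG dinucleotides in capitals.
Dlk1: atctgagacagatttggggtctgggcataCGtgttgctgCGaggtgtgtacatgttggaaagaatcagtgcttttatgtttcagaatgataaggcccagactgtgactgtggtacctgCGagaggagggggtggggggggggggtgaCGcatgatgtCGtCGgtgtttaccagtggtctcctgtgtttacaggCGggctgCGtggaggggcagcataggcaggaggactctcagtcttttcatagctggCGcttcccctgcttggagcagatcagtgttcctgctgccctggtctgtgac
Meg3: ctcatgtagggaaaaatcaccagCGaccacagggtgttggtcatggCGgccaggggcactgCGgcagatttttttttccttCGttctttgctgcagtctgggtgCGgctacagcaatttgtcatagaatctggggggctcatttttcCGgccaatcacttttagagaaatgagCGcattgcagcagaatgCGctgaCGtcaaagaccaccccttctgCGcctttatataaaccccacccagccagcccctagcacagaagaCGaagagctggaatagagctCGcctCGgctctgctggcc
Mest: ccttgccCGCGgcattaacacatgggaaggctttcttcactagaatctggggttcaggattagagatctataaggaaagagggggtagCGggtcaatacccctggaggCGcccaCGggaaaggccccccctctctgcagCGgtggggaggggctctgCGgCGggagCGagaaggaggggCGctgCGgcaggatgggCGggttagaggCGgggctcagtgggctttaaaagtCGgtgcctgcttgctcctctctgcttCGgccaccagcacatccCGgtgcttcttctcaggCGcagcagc
The windows hold 9 CpG for Dlk1, 13 for Meg3 and 17 for Mest, against a median of 7 over 32851 windows of this length. That median covers all windows and not the richest of each gene, so the 2 are not alike. Among all windows, the counts of Dlk1, Meg3 and Mest lie at percentiles of 55.4, 62.9 and 69.4. The windows of the other members hold 11 for Ndn, 13 for Peg3, 26 for Plagl1, 38 for Zdbf2 and 45 for Grb10. The letters TGCCGC, which the imprint-protecting zinc finger protein ZFP57 is known to bind when methylated, contain a CpG and were searched on both strands. They were found in the chosen windows of Meg3, Mest, Grb10 and Plagl1, 4 of the 8 members with a window, and a second window of Zdbf2 holds them 3 times. They occur in 11.6% of all windows, but the members' windows were chosen as rich in CpG and windows with these letters have a median of 24 CpG, so the shares are not alike. GGGGCCCC, letters known as a binding motif of PLAGL1, read the same on both strands and were found in the window of Peg3 and in 1.08% of all windows. These matches describe the letters alone.

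Plagl1, Peg3 and Zdbf2 encode zinc finger proteins, and none differed by 2-fold. Plagl1, a transcription factor known to regulate other imprinted genes, gave 39581 and 41858 by its brightest probe set, a difference of 0.08. Its other probe sets gave -0.16 and -0.61. The brightest carries the suffix _x_at, and without _x_at and _s_at probe sets Plagl1 gave -0.16. Peg3, a large zinc finger protein of mesodermal and neural tissues, had signals of 30113 and 29514 (-0.03), with -0.14 and -0.21 by 2 further probe sets. Another pair of Peg3 probe sets stayed below the floor on both arrays. Zdbf2, whose product contributes to growth after birth, was measured by 1 probe set with signals of 1269 and 1319 (0.06). All 3 genes thus exceeded the floor in both samples, with little difference between the samples by their brightest probe sets.

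The members with roles in signalling and at the cell surface were also within 2-fold. Grb10 encodes an adaptor that binds the insulin and IGF1 receptors and restrains their signalling. Its signals were 19238 and 22507 (0.23), and its other probe sets gave 0.35 and -0.35. Ndn encodes necdin, a MAGE family protein that restrains proliferation in several cell types, and its signals were 11156 and 9892 (-0.17). All 5 Ndn probe sets that exceeded the floor gave lower values, between -0.43 and -0.17, although equal array medians turned the brightest to 0.11. The 3 others stayed below the floor on both arrays. The brightest Ndn probe set carries the suffix _x_at, and without _x_at and _s_at probe sets Ndn gave -0.43. Sgce encodes epsilon-sarcoglycan of the dystrophin-associated complex, and its signals were 2525 and 2014 (-0.33). Its dimmer probe set, with signals of 171 and 219, gave 0.36. Taken over all alternatives of scaling, floor and probe set, the differences of Peg3, Plagl1, Ndn and Sgce took both signs, those of Grb10 lay between 0.001 and 0.51, and those of Zdbf2 between 0.04 and 0.34.

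Genes that neighbour the other members on the chromosome did not all share their values. Usp29, a ubiquitin protease gene, lies head to head with Peg3, and the promoter windows of the pair overlap by 263 bases on opposite strands. Usp29 had signals of 723 and 336, 2.15-fold lower, and -0.24 as a bound by its other probe set. This call ended with equal array medians (-0.82) and when its probe sets were averaged (-0.67). Peg3 itself differed by -0.03. The window of Peg3 is shown because it covers most of the pair's shared start region, which is known to be methylated on a single parental copy, at chr7:6730370-6730669 on the minus strand of GRCm38.p6, with CpG dinucleotides in capitals.
Peg3: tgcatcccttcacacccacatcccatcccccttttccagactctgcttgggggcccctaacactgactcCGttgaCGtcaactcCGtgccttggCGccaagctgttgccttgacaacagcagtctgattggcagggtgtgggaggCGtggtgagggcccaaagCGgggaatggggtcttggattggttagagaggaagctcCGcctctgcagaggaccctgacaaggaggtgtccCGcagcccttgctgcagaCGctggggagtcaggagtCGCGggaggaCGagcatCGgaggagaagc
Zim1, on the other side of Peg3, had signals of 1138 and 681 (-0.74). Beside Sgce on chromosome 6, the neurabin gene Ppp1r9a had signals of 6615 and 1633, 4.05-fold lower, and 3 further probe sets lay between -2.23 and -1.19. Asb4, an ankyrin repeat gene of the same domain, had signals of 5523 and 2505, 2.20-fold lower, and its other probe set gave -1.14, but equal array medians ended the call (-0.86). Peg10, the gene next to Sgce, did not reach the floor on either array. Nor did Gpr1, the neighbour of Zdbf2.

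Near Mest, Klf14, a zinc finger transcription factor gene, had signals of 924 and 194, 4.76-fold lower, while Copg2, which lies between them, had 936 and 897 (-0.06). In the domain of Ndn, Magel2 (3296 and 3419) and Ube3a (4215 and 4818) differed by 0.05 and 0.19, with dimmer Ube3a probe sets down to -0.85. In the domain of Grb10, Cobl differed by -0.56 and Ddc by 0.48. Among the domains named so far, genes at least 2-fold lower thus lay in those of Dlk1-Meg3, Mest, Peg3 and Sgce. Within the last 3 of these, some measured neighbours differed by less than 2-fold. In the first, Meg3 did so by its brightest probe set (-0.96). With equal array medians, the Peg3 domain held no gene at least 2-fold lower, and the others held Rian and Mirg, Klf14, and Ppp1r9a.

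**Figure D4:**
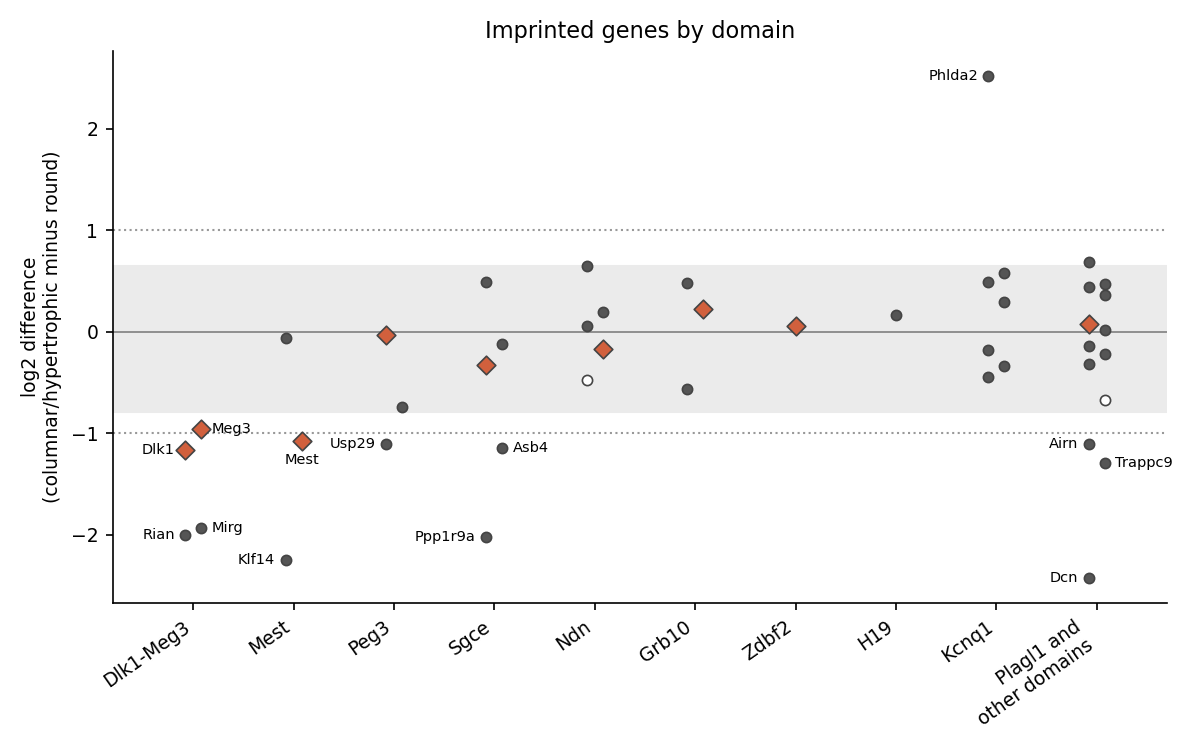
Log2 difference (vertical, columnar/hypertrophic minus round) of members (diamonds) and other imprinted genes (circles, open for bounds) by domain, with dotted lines at 2-fold and a grey band from the 10th to the 90th percentile of all genes (-0.79 to 0.65). Dlk1, Meg3, Rian and Mirg lie together under the band, whereas the domains of Peg3 and Sgce hold genes both inside and under it.

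A wider list held 58 other genes known as imprinted in mice, and whether they are imprinted in this cartilage was not measured. Of the 58, 47 had a probe set naming them alone and 36 exceeded the floor on 1 array or both. Of these 36, 9 were lower by at least 2-fold and 1 was higher, with a median of -0.16. Outside the Dlk1-Meg3 domain, members and others together gave 8 lower and 1 higher of 41, with a median of -0.12. The shares over all genes were 6.37% and 4.31%. Dcn, encoding the matrix proteoglycan decorin, had signals of 23676 and 4414, 5.36-fold lower, and is also on the list of fibrous markers. Airn, an antisense noncoding RNA gene overlapping Igf2r, had signals of 8887 and 4133, 2.15-fold lower, and its 5 probe sets lay between -1.49 and -0.49. Equal array medians ended this call (-0.82). Igf2r itself, the receptor that clears IGF2, had signals of 16883 and 14478 (-0.22). Trappc9, of a vesicle tethering complex, had signals of 275 and 112, 2.45-fold lower from values near the floor. Its 2 other probe sets stayed below the floor on both arrays. The floor at the 99th percentile (-0.92) and the mean of all probe sets (-0.43) each ended this call.

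The single higher gene was Phlda2, known for restraining placental growth, with signals of 162 and 933, 5.75-fold higher. It was measured by 1 probe set. Its neighbour Cdkn1c, encoding a cell cycle inhibitor that acts as chondrocytes leave proliferation, had signals of 22876 and 32040 (0.49), and this too rested on 1 probe set. Igf2, the fetal growth factor gene beside H19, had signals of 34173 and 38413 (0.17), and its other probe set gave 0.35. Gnas, encoding the stimulatory G protein alpha subunit that acts downstream of the parathyroid hormone receptor, had signals of 18968 and 25784 (0.44), and 3 further probe sets lay between -0.31 and 0.75. By their brightest probe sets, Cdkn1c, Igf2 and Gnas were thus within 2-fold.

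Genes whose products work with those of the members were mostly within 2-fold, as were 10454 of all 11703 genes. Of 12 genes of insulin and IGF receptor signalling, the pathway that Grb10 restrains, 1 was at least 2-fold higher, 1 lower and 10 within, with a median of 0.08. Of all genes, 4.31% were as much higher and 6.37% as much lower. The higher gene was Grb14, an adaptor of the same family as Grb10, with signals of 239 and 1971, 8.26-fold, while its other probe set stayed below the floor on both arrays. The lower gene was Pik3r1, a regulatory subunit of phosphoinositide 3-kinase, with signals of 1126 and 432, 2.61-fold, with further probe sets at -1.55 and -0.54 and a bound of -0.45. The receptor genes Igf1r (2492 and 3395) and Insr (2484 and 1408) differed by 0.45 and -0.82, the receptor adaptor gene Irs1 by 0.27 and the kinase gene Akt1 by -0.38. Grb10 and Grb14 thus differed in this comparison by 0.23 and 3.05.

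Of 7 measured genes of the sarcoglycan and dystrophin complex, to which Sgce belongs, 6 were within 2-fold and the median was -0.07. Since 10454 of all 11703 genes were within 2-fold, neither this count nor that of the imprint genes below sets its list apart. Dmd, encoding dystrophin, had signals of 293 and 44.7, at least 2.91-fold lower, and its call ended with the mean of its probe sets (-0.74). Of the brightest others, Sspn (sarcospan), Dag1 (dystroglycan), Utrn (utrophin) and Sgcb (beta-sarcoglycan) differed by -0.07, -0.07, 0.48 and -0.18. Genes that establish or maintain imprints were also within 2-fold, 7 of 7, with a median of -0.17. Among them, Trim28, a corepressor recruited by ZFP57, differed by 0.17, the maintenance DNA methyltransferase gene Dnmt1 by -0.30, the de novo methyltransferase gene Dnmt3a by -0.53 (its 5 probe sets from -0.91 to 0.70) and the zinc finger gene Zfp445 by -0.46. Zfp57 itself stayed below the floor (17.6 and 13.6).

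**Figure D5:**
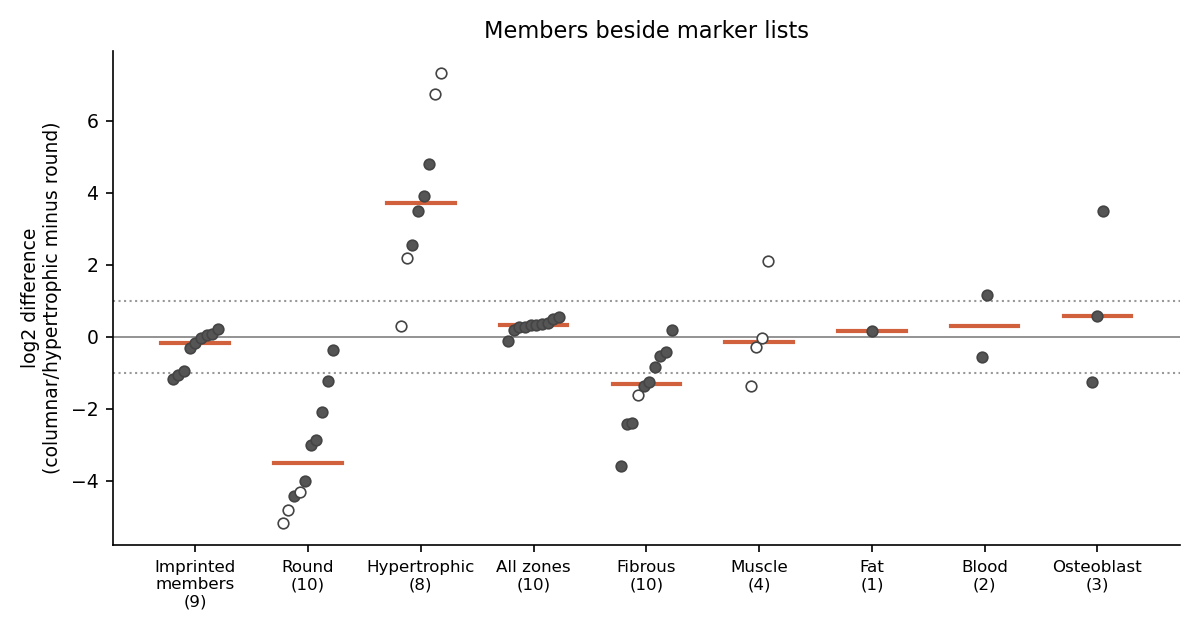
Log2 difference (vertical, columnar/hypertrophic minus round) of the 9 members beside marker genes that exceeded the floor, with their number in brackets, 1 point per gene, open points for bounds, red bars for medians and dotted lines at 2-fold. The members have a median of -0.17, the fibrous markers of -1.31, the round markers of -3.51 and the hypertrophic markers of 3.71.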

How the data were processed

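The deposited table holds 1 intensity per probe set and array, a linear signal. The submitters' processing notes name MAS5, with no version in the sources used here. MAS5 merges probe pairs into 1 value and brings every array to the same trimmed mean, so total signal is taken as equal between arrays. RMA, named in the study's methods, gives log values, but the deposited values were linear and reached down to 0.0948. No genome build is named.

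Symbols came from the platform annotation, by which the probe sets divide into 34958 with 1 symbol, 932 with several (not used) and 9211 unnamed here. Entrez identifiers of 34754 matched RefSeq GRCm38.p6 and updated the symbols. Median signals were 128 (round) and 105 (columnar/hypertrophic), and 55.0% and 50.8% of probe sets lay above the floor. The number of arrays limits the precision. Calculations used Python 3.11.15, pandas 2.3.3, numpy 2.4.6 and statsmodels 0.14.6, and were tested on simulated data. That test changed only genes well above the floor, and it required a rate of calls only for changes larger than 2-fold. It does not vouch for calls close to the 2-fold limit.

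The members and lists were chosen with earlier results of these data known. By rule, the members were named with each list's genes past 2-fold (at most 8), its 4 brightest others and the extremes of marker lists. Usp29, Airn, Zim1, Peg10, Gpr1, Copg2, Magel2, Ube3a, Cobl, Ddc, Igf1r, Insr, Bgn, Cthrc1 and Col3a1 were named outside it, after their values were seen. Markers of fat, blood and osteoblasts, measured for 1, 2 and 3 genes, had medians of 0.16, 0.31 and 0.58, and muscle markers -0.16. Alternatives were 3 scalings, 3 settings of the floor, 2 choices of probe set, 2 other folds and, added after seeing the data, the mean over probe sets that exceeded the floor on both arrays. Leaving out a replicate was not possible with 1 array a group.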

Additional observations from a re-analysis of the deposited data

How the results depend on the processing

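With equal medians, or with a limit of 3-fold, 0 members were at least that much lower, against 2 as deposited. Quantile normalization, lowess centring and both means over probe sets gave 3, Meg3 being added. Over all alternatives the median of members lay between -0.35 and 0.11 and 0 members were higher. Over all genes, equal medians gave 414 lower and 943 higher calls, against 745 and 504. The mean of all probe sets gave 490 and 371. Dlk1 gave -2.68 without the shared probe sets, and Meg3 gave -1.60 with the mean of its probe sets. Other imprinted genes had 6 to 10 lower calls, and 2 higher calls with either mean over probe sets. In the insulin and IGF list, lower calls numbered 2 without a floor and 0 with the mean of all probe sets, and higher calls 2 with equal medians or without shared probe sets. In the sarcoglycan list, lower calls numbered 2 without a floor and 0 with either mean. Of 336 alternative values, 311 stayed within the technical SD of 0.37 or, for counts, within 1.5 times. No difference past 2-fold changed sign. Part of this was fixed in advance. Equal medians moved differences above the floor by about 0.28, which is less than that SD. Changes of the floor cannot move genes far above it. The share that stayed is therefore no measure of robustness. The causes were not tested. No paired analysis was possible because each group is 1 array.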
